A study of Rattus norvegicus with 8 samples.

Results

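miR-26a and miR-26b are a pair of miRNAs that share a seed and lie inside genes of one family of phosphatases. Their rows were found by name in the table of reads on known rat miRNAs, with any arm suffix allowed, and 4 of its 620 rows matched. These are rno-miR-26a and rno-miR-26b, which come from the 5′ arms of their hairpins, and rno-miR-26a* and rno-miR-26b*, which come from the opposite 3′ arms. The samples were kidneys of male Big Blue transgenic Fisher 344 rats, a strain that carries a reporter transgene for mutation assays in every cell, in the control as well as in the treated animals. The AA group of 4 rats received aristolochic acid, a plant carcinogen given as its sodium salt by gavage, at 10 mg/kg body weight on 5 days of each week over 12 weeks. The control group (CTL) of 4 rats received 0.9% saline in the same way. All rats were 6 weeks old at the start, and kidneys were taken 1 day after the last dose. Each group has as many libraries as rats, and the study describes samples of 4 treated and 4 control rats. The labels do not state in words that each library came from a different rat, and p-values measure the spread between these libraries.

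The libraries held 13412373 to 15616670 reads on known miRNAs. Together they held 117232063 reads, more than the study states for all its samples, and the sources used here do not explain the difference. The tissue field of the sample labels reads liver, while the series text names the kidney. miR-122, which defines liver cells, had 9 to 95 reads in 6 libraries, 707 in CTL1 and 9634 in AA2, whereas miR-10a-5p and miR-30a, which are abundant in kidney, each took 6.52% or more of every library. Within a group, every pair of libraries differed far beyond counting error (chi-square per degree of freedom of 437 or more), and each was counted as a separate sample. TMM normalization, which sets the libraries to a common scale over most miRNAs, gave factors of 0.874 to 1.04 in the control libraries and 0.965 to 1.21 in the AA libraries. Levels below are read counts brought to one common library size by this scaling (CPM), and shares are the plain percent of the reads of a library. In whole kidney, fewer cells of a type and less miRNA per cell cannot be told apart.

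The miR-26 miRNAs are conserved across vertebrates. A mature miRNA guides the silencing complex to mRNAs that pair with its seed, and members with the same seed share most predicted targets. miR-26a and miR-26b are known as restrainers of growth that act on Ezh2 and on cyclins of the G1 phase, and they are encoded in introns of the Ctdsp genes, whose small phosphatases also hold back entry into S phase.

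The 4 mature sequences are shown because the seed is what the pair shares and the rest is what allows their reads to be told apart. They are the RefSeq entries of the rat assembly GRCr8, all on the plus strand, written 5′ to 3′ with the seed, bases 2 to 8, in capitals. All 4 rows were matched to an entry, the plain names to the -5p entry and the names with an asterisk to the -3p entry.
rno-miR-26a (chr8:127633063-127633084): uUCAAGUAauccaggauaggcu
rno-miR-26b (chr9:83425723-83425743): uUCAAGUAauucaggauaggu
rno-miR-26a* (chr8:127633102-127633122): cCUAUUCUugguuacuugcac
rno-miR-26b* (chr9:83425759-83425780): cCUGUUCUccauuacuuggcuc

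The seed of miR-26a and miR-26b was UCAAGUA, and the site that pairs with it in an mRNA reads UACUUGA. Of the 724 mature rat miRNAs in the RefSeq table, 2 carried this seed, and they are these members. Over the 21 bases that both sequences cover, they differed by 2 substitutions, C11U and C21U, with the base of miR-26a first and positions counted from 1 at the 5′ end. Both lie outside the seed. The opposite arms were less alike, with 7 substitutions over 21 bases. One of these, A4G, is inside the seed, so that rno-miR-26a* and rno-miR-26b* belong to different seed groups, and neither seed was carried by another entry of the table. Outside the family, the nearest mature sequence to miR-26a without gaps was that of miR-337-3p, with 11 substitutions over 22 bases, and the nearest to miR-26b was that of miR-155-5p, with 9 over 21. The pair can thus be told apart by a read that covers base 11, as long as mismatches are not allowed there, and how the mapping to known miRNAs treated mismatches is not given in the sources used here. The split of reads between the pair is therefore less certain than their sum. The gel cut used to select small RNA began, per the labels, at the length of miR-26a, which is 1 base longer than miR-26b and rno-miR-26a*. The ratio of levels between members within a library can depend on this cut, and its part in the values below was not tested.

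The hairpins are shown because they place each arm and its partner. They are the RefSeq precursors in GRCr8 on the plus strand, with the mature arms in capitals.
Mir26a (chr8:127633048-127633137): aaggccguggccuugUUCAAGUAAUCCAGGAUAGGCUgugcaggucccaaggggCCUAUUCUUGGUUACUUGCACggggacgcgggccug
Mir26b (chr9:83425709-83425793): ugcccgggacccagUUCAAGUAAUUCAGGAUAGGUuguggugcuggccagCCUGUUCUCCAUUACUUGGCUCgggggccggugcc

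In the RefSeq gene table, Mir26a lay within the span of Ctdspl and Mir26b within that of Ctdsp1, each on the strand of its host. The table used here gives no exons, and the placing in introns is background. Ctdsp2, another gene of the host family that carries a further copy of miR-26a in mouse and human, held 0 of the 466 miRNA genes in the table. The table thus gives Mir26a as the only locus of this sequence. Reads from a copy that the table lacks would be counted on the same row, so reads on rno-miR-26a are not assigned to a locus. The mRNAs of the hosts were not measured. RNAfold gave a minimum free energy of -47.4 kcal/mol for the 90 bases of Mir26a and -43.4 kcal/mol for the 85 bases of Mir26b. In the predicted folds, 18 of the 22 bases of miR-26a paired with rno-miR-26a*, and 17 of the 21 bases of miR-26b paired with rno-miR-26b*.

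The 4 rows took 864661 reads, or 0.738% of all reads of the 8 libraries. rno-miR-26a held 85.0% of these and rno-miR-26b 14.7%. The opposite arms were rare, with 2341 reads for rno-miR-26a* and 244 for rno-miR-26b* in all libraries together. Every row passed the filter of at least 10 reads in at least 4 libraries, and none of them passed only through one group, since the lowest count of the rarest row was 22 reads.

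rno-miR-26a had 92285, 93754, 98980 and 108325 reads in CTL1 to CTL4 and 65553, 90017, 87545 and 98490 reads in AA1 to AA4. On the CPM scale this was 6920, 6899, 6138 and 8825 in the control rats and 5067, 4884, 6023 and 5834 in the AA rats. All AA values were below all control values, although the highest of them, in AA3, was close to the lowest control, CTL3. The means were 7196 ± 1145 CPM in CTL and 5452 ± 561 in AA (SD, n = 4 each).

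The log2 fold change of rno-miR-26a, AA against CTL, was -0.40 with a standard error of 0.16, and its adjusted p was 0.12 in the edgeR fit over all tested miRNAs. It was thus not called at an adjusted p of 0.05. The 95% interval of the fold ran from 0.594 to 0.966 times the control level.

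rno-miR-26b had 16746, 16253, 17097 and 16707 reads in CTL1 to CTL4 and 11900, 16105, 14948 and 17371 reads in AA1 to AA4. Its levels were 1256, 1196, 1060 and 1361 CPM in the control rats and 920, 874, 1028 and 1029 CPM in the AA rats. As for rno-miR-26a, the groups did not overlap, CTL4 was the highest library and CTL3 the lowest control. The means were 1218 ± 125 CPM in CTL and 963 ± 78.5 in AA (SD, n = 4 each). The log2 fold change was -0.34 with a standard error of 0.14, and the adjusted p from edgeR was 0.14. The 95% interval of the fold ran from 0.634 to 0.986.

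**Figure D1:**
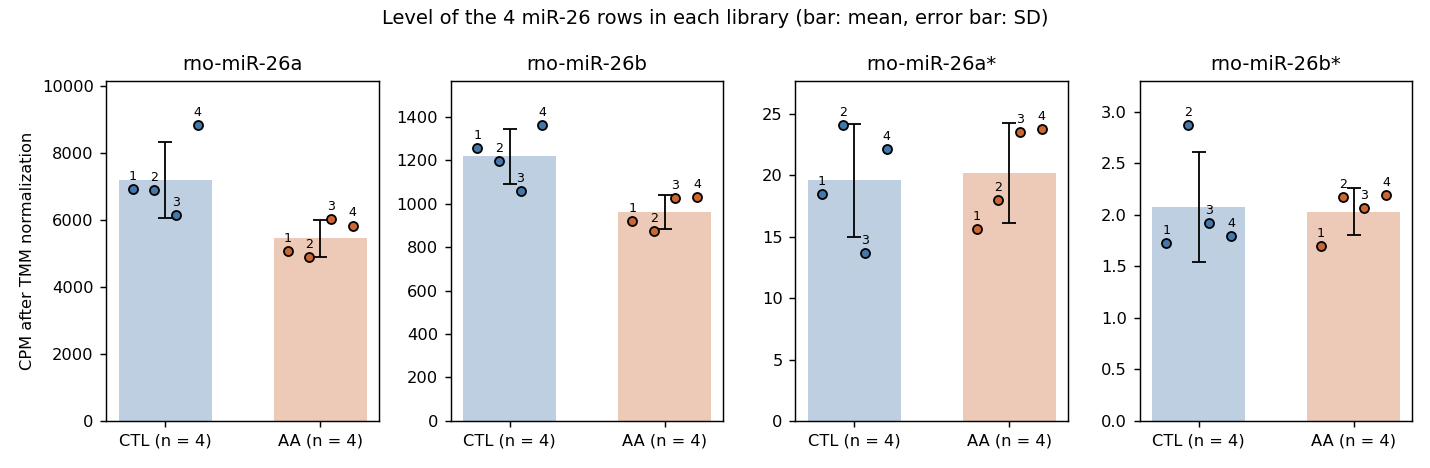
Level of rno-miR-26a, rno-miR-26b, rno-miR-26a* and rno-miR-26b* in CPM, with 1 point per library labelled by its number, bars for the group mean and error bars for the SD (n = 4 each). The AA points of rno-miR-26a and rno-miR-26b lie below the control points, while those of the opposite arms lie among them.

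By point estimate, rno-miR-26a was at 0.758 and rno-miR-26b at 0.790 times the control level, without passing the threshold. Of the 4 rows, 0 were called by edgeR, and 0 by the DESeq2 Wald test, where the adjusted p was 0.063 for rno-miR-26a and 0.053 for rno-miR-26b. At an unadjusted p under 0.05, 2 of the 4 rows passed, namely both 5′ arms in edgeR, against 30% of all 367 tested miRNAs at that p. After adjustment, 16.3% of the tested miRNAs were called in either direction and 5.99% were called lower in AA. CPM of the groups did not overlap in 2 of the 4 rows, against 24.3% of all tested miRNAs in either direction and 9.81% with the AA rats below. The median log2 fold change of all tested miRNAs was 0.06. Relative to it, the differences were -0.46 for rno-miR-26a and -0.40 for rno-miR-26b, and 21.5% and 25.1% of the tested miRNAs had a lower log2 fold change than these members.

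The size changed when single libraries of either group were left out. Without AA4, the log2 fold changes were -0.55 for rno-miR-26a and -0.49 for rno-miR-26b (edgeR, adjusted p = 0.083 and 0.067). The median over all tested miRNAs moved as well, from 0.06 to -0.086 without AA4, -0.096 without CTL3 and 0.080 without CTL4. Without AA4, its move was about as large as that of rno-miR-26a and rno-miR-26b, so their distance to the median hardly changed. Without CTL3, the lowest control, the log2 fold changes were -0.60 for rno-miR-26a and -0.52 for rno-miR-26b (edgeR, adjusted p = 0.077 and 0.082), and without CTL4, the highest, they were -0.29 and -0.28 (edgeR, adjusted p = 0.20 for both). With both CTL4 and AA4 left out, they were -0.37 and -0.36 (edgeR, adjusted p = 0.084 and 0.065). Without AA2, the library with the most miR-122 reads, the log2 fold changes were -0.42 for rno-miR-26a and -0.36 for rno-miR-26b (edgeR, adjusted p = 0.17 and 0.19).

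The size of the difference depended on the scaling. As plain shares of the reads, rno-miR-26a took 0.605%, 0.639%, 0.638% and 0.789% in the control rats and 0.489%, 0.592%, 0.634% and 0.631% in the AA rats. The counting error of such a share was small, as the 95% Wilson interval in AA1 ran from 0.485% to 0.492%. rno-miR-26b took 0.110%, 0.111%, 0.110% and 0.122% in the control rats and 0.0887%, 0.106%, 0.108% and 0.111% in the AA rats. In these shares the groups overlapped for both miRNAs, and 0 of the 4 rows were without overlap, against 26.4% of all tested miRNAs. With total counts in place of TMM, the log2 fold changes were -0.19 for rno-miR-26a (edgeR, adjusted p = 0.40) and -0.13 for rno-miR-26b (edgeR, adjusted p = 0.56), while the median over all tested miRNAs moved from 0.06 to 0.27.

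**Figure D2:**
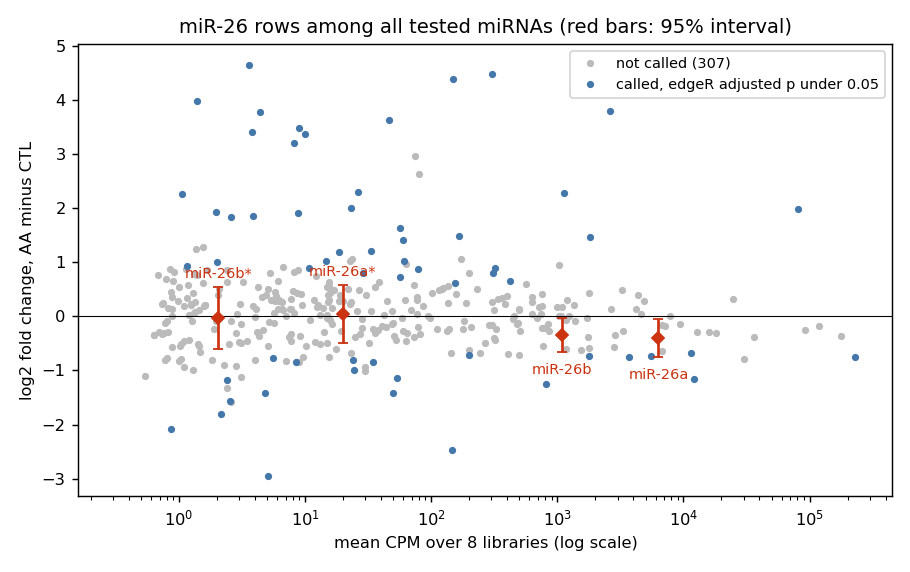
Log2 fold change of AA against CTL for the 367 tested miRNAs, plotted against mean CPM on a log axis, with called miRNAs in blue and the 4 miR-26 rows in red with 95% intervals. rno-miR-26a and rno-miR-26b sit at -0.40 and -0.34 among the abundant miRNAs and their opposite arms close to 0 among the rare ones.

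The rank of a miRNA within its library gives another view of the level. rno-miR-26a ranked 17 to 20 among the 620 rows in the control rats and 18 to 22 in the AA rats. rno-miR-26b ranked 40 to 43 in the control rats and 46 to 53 in the AA rats. How many other miRNAs differed as much in rank was not counted. A rank also moves when other miRNAs change.

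The family as a whole took 0.783% ± 0.0880 of the reads in CTL and 0.692% ± 0.0782 in AA (SD, n = 4 each). The difference of -0.0903 percentage points had a standard error of 0.0589, and the summed shares of the groups overlapped. A difference between the groups was not detected (exact permutation test, two-sided, p = 0.143, adjusted p = 0.267 over a family of 4 comparisons). The smallest p that 4 against 4 rats allow is 0.0286. The result depended on abundant miRNAs in the denominator. miR-378, miR-143 and miR-30a made up 44.7% to 60.1% of each library. As a percent of the reads left without them, the family took 1.83% ± 0.271 in CTL and 1.31% ± 0.174 in AA (SD, n = 4 each), and the test reached that smallest p (exact permutation test, p = 0.0286). On this smaller total AA was at 0.716 times CTL, against 0.885 times on the full total, and the differences in percentage points on the different totals are not comparable. With miR-21 left out instead, the family took 0.807% ± 0.0875 in CTL and 0.803% ± 0.0954 in AA (exact permutation test, SD, n = 4 each, p = 1). miR-378, the most abundant of all, fell by 0.75 on the log2 scale (edgeR, adjusted p = 0.019). miR-21, a miRNA that is known to increase in injured kidney, was at 32392 ± 4536 CPM in CTL and 128596 ± 51187 in AA (SD, n = 4 each).

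Whether the pair moved unequally can be read from their ratio within a library, which no scaling changes. There were 5.51, 5.77, 5.79 and 6.48 reads of rno-miR-26a per read of rno-miR-26b in CTL1 to CTL4, and 5.51, 5.59, 5.86 and 5.67 in AA1 to AA4. The ratios overlapped, and 7 of the 8 libraries lay between 5.51 and 5.86, with CTL4 above them. The log2 ratio differed by -0.06 with a standard error of 0.05 between the groups (exact permutation test, two-sided, p = 0.371, adjusted p = 0.371). Without CTL4 the difference was -0.0085 (exact permutation test, p = 0.743). A difference in response between rno-miR-26a and rno-miR-26b was not detected.

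When each tested miRNA was centred on its own mean log2 CPM and profiles were compared by the root mean square difference over the 8 libraries, the nearest of the 366 other miRNAs to rno-miR-26a was rno-miR-26b, at 0.071 on the log2 scale, and the nearest to rno-miR-26b was rno-miR-26a. The median distance to the other miRNAs was 0.483 for rno-miR-26a and 0.462 for rno-miR-26b. The next nearest to both was rno-miR-139-5p, at 0.094 from rno-miR-26a and 0.072 from rno-miR-26b, with a log2 fold change of -0.31 (edgeR, adjusted p = 0.25). After it came rno-miR-378*, rno-miR-151 and rno-miR-342-3p for rno-miR-26a, at 0.116 to 0.123, and rno-miR-342-3p, rno-miR-181c and rno-miR-151 for rno-miR-26b, at 0.107 to 0.145. These distances are a description over 8 shared libraries.

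**Figure D3:**
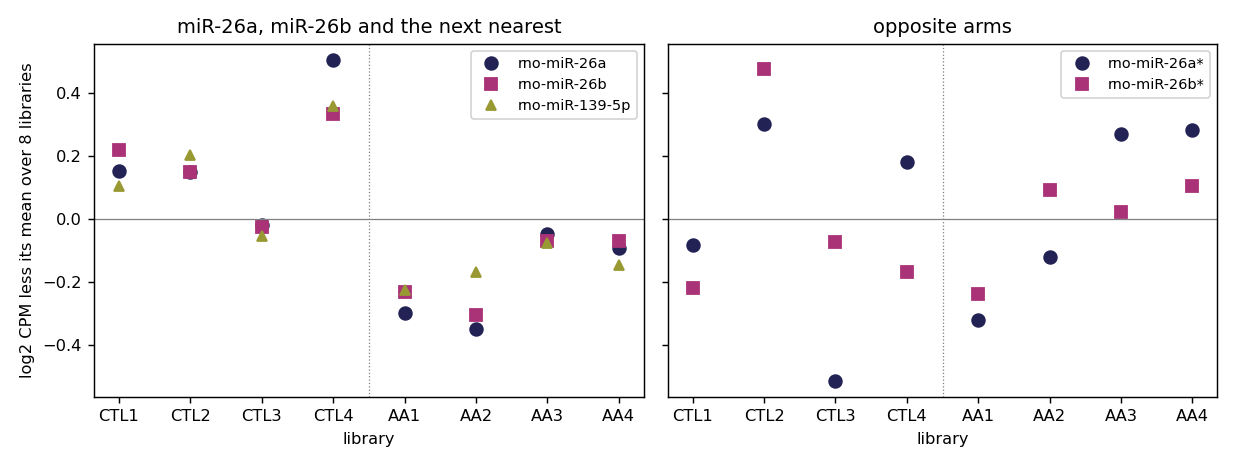
Log2 CPM of each miRNA less its own mean over the 8 libraries, with rno-miR-26a, rno-miR-26b and rno-miR-139-5p on the left, the opposite arms on the right, and a dotted line between the groups. The 3 miRNAs on the left take nearly the same place in each library, with CTL4 the highest, while the opposite arms are placed differently, with CTL2 the highest of both.

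rno-miR-26a*, the passenger strand of Mir26a, had 246, 327, 220 and 272 reads in CTL1 to CTL4 and 202, 331, 342 and 401 reads in AA1 to AA4. Its levels were 18.4, 24.1, 13.6 and 22.2 CPM in the control rats and 15.6, 18.0, 23.5 and 23.8 CPM in the AA rats. The groups overlapped, with the lowest and the highest library both in the control group. The log2 fold change was 0.05 with a standard error of 0.24 (edgeR, adjusted p = 0.90), and the 95% interval of the fold ran from 0.715 to 1.49.

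rno-miR-26b*, the passenger strand of Mir26b, had 23, 39, 31 and 22 reads in CTL1 to CTL4 and 22, 40, 30 and 37 reads in AA1 to AA4. This is 1.72, 2.87, 1.92 and 1.79 CPM in the control rats and 1.70, 2.17, 2.06 and 2.19 CPM in the AA rats, and the groups overlapped. The log2 fold change was -0.03 with a standard error of 0.26 (edgeR, adjusted p = 0.94), and the 95% interval of the fold ran from 0.658 to 1.46. At these counts the counting error alone is 15.8% to 21.3% of each value, close to the spread between rats, which was 25.7% of the mean CPM in CTL and 11.2% in AA. For rno-miR-26a the counting error was at most 0.391% and the spread between rats 15.9% and 10.3%. The sign of either opposite arm changed with the scaling, and a direction for them is not given.

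The arms of one hairpin leave the same precursor (for miR-26a, reads from any further locus would be counted with those of Mir26a), and their ratio within a library is free of the scaling. rno-miR-26a* made up 0.266%, 0.348%, 0.222% and 0.250% of the reads on rno-miR-26a and rno-miR-26a* together in the control rats and 0.307%, 0.366%, 0.389% and 0.405% in the AA rats. CTL2 lay above AA1, and the other control rats lay below all AA rats. The log2 ratio of rno-miR-26a to rno-miR-26a* was 8.54 ± 0.27 in CTL and 8.09 ± 0.18 in AA (SD, n = 4 each), a difference of -0.45 with a standard error of 0.16. The exact permutation test gave p = 0.0571 and, over the 4 comparisons, an adjusted p of 0.229.

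rno-miR-26b* made up 0.137%, 0.239%, 0.181% and 0.132% of the reads on both arms of Mir26b in the control rats and 0.185%, 0.248%, 0.200% and 0.213% in the AA rats. The 95% Wilson interval, which covers counting error only, was 0.0914% to 0.206% in CTL1 and 0.122% to 0.279% in AA1. The log2 ratio of rno-miR-26b to rno-miR-26b* was 9.20 ± 0.40 in CTL and 8.87 ± 0.17 in AA (SD, n = 4 each). The groups overlapped, and the difference of -0.33 had a standard error of 0.22. A shift of this ratio was not detected (exact permutation test, p = 0.200, adjusted p = 0.267). Leaving out 1 library gave -0.50 to -0.21 (exact permutation test, p = 0.0571 to 0.40). The largest size came without CTL2 and the smallest without CTL4 (exact permutation test, p = 0.0571 and 0.40). The first of these p-values is the smallest that 4 against 3 rats allow.

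**Figure D4:**
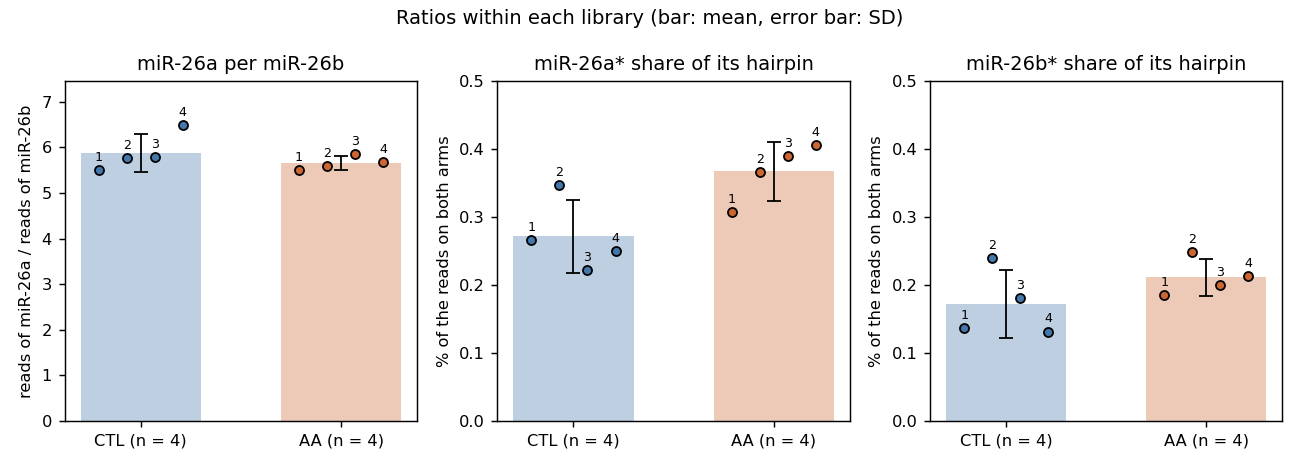
Reads of rno-miR-26a per read of rno-miR-26b (left) and the percent of the reads on both arms that fell on rno-miR-26a* (middle) and rno-miR-26b* (right), with 1 point per library, bars for the mean and error bars for the SD (n = 4 each). The ratio of the pair stays near 5.7 in all libraries but CTL4, and the share of the opposite arms is under 0.41% everywhere.

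Among the 111 pairs of tested arms that could be matched by name, the more abundant arm exceeded the other by a median log2 ratio of 5.57 in the control group. Hairpins whose opposite arm has a locus number in its name were left out. The miR-26b arms stood at rank 18 and the miR-26a arms at rank 23 in this imbalance. The shift of the ratio in AA had a median of -0.13 over the 111 pairs and was below 0 in 67 of them. The shift of the miR-26a arms was the 25th from the lowest and that of the miR-26b arms the 34th.

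A list of other miRNAs inside coding genes served as company for the pair. It was chosen with earlier results of these data known, so its calls are not a test of such miRNAs. Of its 26 names 25 were tested, and 6 of these were lower and 0 higher at an adjusted p under 0.05 in edgeR. Of all tested miRNAs, 5.99% were called lower and 16.3% in either direction. The median log2 fold change of the list was -0.23. The lowest was rno-miR-103, which lies in the Pank genes of coenzyme A synthesis, and it fell by 1.16 on the log2 scale (edgeR, adjusted p = 0.0057). rno-miR-107 of the same gene family, rno-miR-152, rno-miR-204, rno-miR-338 and rno-miR-378 were the others. The highest was rno-miR-335, which lies in the imprinted gene Mest, with a log2 fold change of 1.06 (edgeR, adjusted p = 0.083), which was not called. rno-miR-26a and rno-miR-26b, at -0.40 and -0.34, lay between the called members and the median of the list.

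miR-26a is known as a repressor of the methyltransferase Ezh2, and 12 other miRNAs with that role, among them let-7 and miR-101, formed a list. All 12 were tested and 0 were called by edgeR, against 16.3% of all tested miRNAs, with a median log2 fold change of 0.36 and 2 members below 0. Most of the list was let-7 miRNAs, all above 0 by point estimate, so the median largely reflects them. Its lowest member was rno-miR-101a at -0.31 (edgeR, adjusted p = 0.37) and its highest rno-miR-98 at 0.51 (edgeR, adjusted p = 0.20). A list of 11 miRNAs that are described as antifibrotic, from the miR-29, miR-30 and miR-200 families, had 0 calls as well and a median of -0.13. It ran from rno-miR-30e at -0.38 to rno-miR-200c at 0.42 (edgeR, adjusted p = 0.18 and 0.21).

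Markers of the cells in the kidney were examined beside these levels. Of all tested miRNAs, 16.3% were called by edgeR in either direction and 5.99% were called lower. Of the leukocyte list, 6 of 7 names were tested and 3 were higher in AA, led by rno-miR-146b with a log2 fold change of 2.27 (edgeR, adjusted p = 0.0014). The summed level of the list was 2468 to 3557 CPM in the control rats and 4259 to 8104 CPM in the AA rats. In the list of stroma and injury, 2 of 6 members were higher, and the summed level was 208773 to 269266 CPM against 215544 to 349148 CPM. Most of that sum came from rno-miR-143 and rno-miR-21, which differed in opposite directions by point estimate. Of these, rno-miR-21 was called higher, while rno-miR-143 was not called (log2 fold change -0.36, edgeR, adjusted p = 0.18) and its groups overlapped. The mean of rno-miR-143 was 198659 CPM in CTL and 154697 in AA, and that of rno-miR-21 was 32392 and 128596. Of 8 nephron markers, 2 were lower, with rno-miR-204 lowest at -0.80 (edgeR, adjusted p = 0.034), and the summed level was 260853 to 328511 CPM against 208278 to 296325 CPM. The epithelial list had 0 of 5 called, the red blood cell list 0 of 2, the muscle list 0 of 4 tested, and miR-122 was not called. None of the markers with a row had 0 reads in any library. The part of these cell types in the lower miR-26 levels was not tested.

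**Figure D5:**
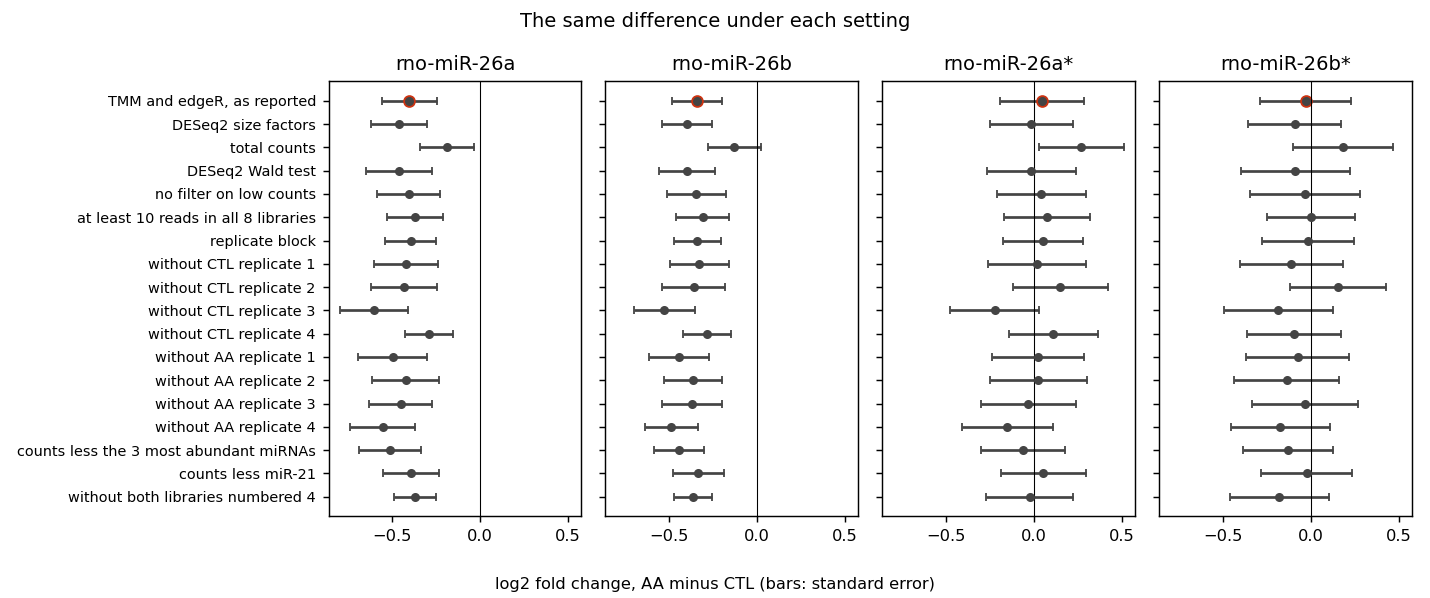
Log2 fold change of AA against CTL for the 4 miR-26 rows under the reported fit and 17 other settings, with bars for the standard error. rno-miR-26a stays between -0.60 and -0.19 and rno-miR-26b between -0.52 and -0.13, while the opposite arms lie on both sides of 0.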

How the data were processed

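Small RNA of 8 rat kidneys was read with the Illumina Genome Analyzer II. The table the authors deposited holds counts of reads on each known rat miRNA of miRBase in each library, without normalization. Per the study's methods, reads were aligned by Bowtie within miRanalyzer. The labels also name DESeq, whose role and version are not given in the sources used here. Group and number of a library come from its title.

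AA and CTL were compared with edgeR 4.0.16 in R 4.3.3 (glmQLFTest, TMM, two-sided) over the 367 miRNAs that reached 10 reads in 4 or more libraries, with p-values adjusted by the method of Benjamini and Hochberg over all of them and a threshold of 0.05. The standard error is the log2 fold change divided by the root of F. Ratios within a library used a pseudocount of 0.5 and the exact permutation test of scipy 1.17.1. DESeq2 1.42.0 was an alternative, and RNAfold 2.7.2 folded the hairpins. Intervals of shares cover counting error only. Depth was 13412373 to 15616670 reads. A row had to be named miR-26a or miR-26b, with or without a suffix. Also named are the 5 miRNAs with the most similar profile and the highest and lowest tested member of each list, while further called members and miR-21 were named after their values were seen. miR-10a was listed by arm, and miR-155 and miR-208 were not among the rows. The members and lists were chosen with earlier results of these data known.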

Additional observations from a re-analysis of the deposited data

How the results depend on the processing

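Over 17 alternative fits, rno-miR-26a and rno-miR-26b were below 0 in each and called in none. Their adjusted p was 0.063 to 0.40 and 0.053 to 0.56. Leaving out 1 library gave -0.60 to -0.29 and -0.52 to -0.28, with the largest size without CTL3 and the smallest without CTL4. rno-miR-26a* changed sign with DESeq2 size factors (-0.014), the DESeq2 Wald test (-0.013), the counts less the 3 most abundant miRNAs (-0.062), without both libraries numbered 4 (-0.022) and in 3 fits that left out 1 library (-0.22 to 0.15 over the 8). rno-miR-26b* changed sign with total counts (0.18), with at least 10 reads in all 8 libraries (0.0019) and without CTL2 (-0.18 to 0.16 over the 8). The summed share differed at p = 0.0286 (exact permutation test) only with the 3 most abundant miRNAs out of the total (-0.518 points of that smaller total), and leaving out 1 library gave -0.112 to -0.0471. The 60 calls over all miRNAs became 35 to 51 with 1 library left out, with 35 without CTL2 and 37 without CTL1. With total counts, 54 were higher and 14 lower, against 38 and 22. The causes were not tested.

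The titles give both groups the numbers 1 to 4. Deviations of same-numbered libraries correlated at 0.05, 0.20, 0.14 and 0.35 across miRNAs, and since a pairing was accepted only where all 4 exceeded 0.1 the numbers were not taken to pair the rats, although 3 of the 4 AA libraries correlated best with their own number. With the replicate block, 78 miRNAs were called, and rno-miR-26a and rno-miR-26b were at -0.39 and -0.34 (edgeR, adjusted p = 0.092 and 0.11). The opposite arms were at 0.054 and -0.016, the ratio of the pair at -0.056 and the summed share at -0.0903. The ratios of 5′ arm to opposite arm were at -0.45 and -0.33, each with p = 0.125 (exact permutation test within pairs), the smallest that 4 pairs allow. Counting error came near the spread between rats for rno-miR-26b* alone.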

Other observations

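The opposite arms were farther from their partners than the 5′ arms were from each other, but nearer than most miRNAs. Among the 366 other tested miRNAs, rno-miR-26a* was the 59th nearest to rno-miR-26a, at 0.299 against a median of 0.483, and rno-miR-26b* was the 73rd nearest to rno-miR-26b, at 0.305 against a median of 0.462, by the root mean square difference of centred log2 CPM over the 8 libraries. The nearest to rno-miR-26a* was rno-miR-20a*, at 0.200, and the nearest to rno-miR-26b* was rno-miR-16, at 0.176. rno-miR-26b* has 22 to 40 reads in a library, and its distance holds counting error.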
